A study of Mus musculus with 6 samples.

Results

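Mitochondria fuse, divide and fold their inner membrane into cristae, and 10 mouse genes that encode the core of this machinery were followed in the inguinal white fat depot (iWAT) of mice carrying an *Hlx* transgene (TG) and of wild-type (WT) littermates. The genes were taken by symbol from the deposited table, where each of the 10 symbols has 1 row among 19445 loci, and all 10 passed the expression filter that left 11692 loci for testing. They are *Mfn1*, *Mfn2* and *Opa1* for fusion, *Dnm1l*, *Fis1* and *Mff* for fission, the proteases *Oma1* and *Yme1l1*, and the cristae organisers *Immt* and *Chchd3*.

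Mitofusins 1 and 2, the products of *Mfn1* and *Mfn2*, are GTPases that tether and fuse outer membranes, and Opa1 is the GTPase that fuses inner membranes and keeps cristae tight. The proteases Oma1 and Yme1l1 cut Opa1 into short forms, and Oma1 is switched on by loss of membrane potential. Fission needs the dynamin-like GTPase encoded by *Dnm1l* (Drp1), which assembles on the outer membrane at receptors such as Mff, while Fis1 is a small outer membrane protein first described as a fission factor. Immt (Mic60) and Chchd3 (Mic19) are core subunits of the MICOS complex, which holds cristae junctions open. Brown adipocytes are packed with mitochondria that are dense in cristae and carry the uncoupling protein Ucp1 in the inner membrane, and adrenergic stimulation makes those mitochondria divide, whereas white adipocytes have few.

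The samples were iWAT from 3 TG mice and 3 WT littermate controls, all untreated and 12 weeks old. The transgene joins *Hlx* cDNA to the *aP2* (*Fabp4*) promoter, which drives it in brown and white fat depots, and it was made in embryos from C57BL/6 × SJL hybrids and then backcrossed with C57BL/6. Each library is 1 mouse, and the sources used here do not say how many founder lines the 3 TG mice came from. Values are FPKM, fragments per length of transcript and per number of mapped reads, so levels of different genes can be set side by side. *Hlx* itself had 110, 79.6 and 99.5 FPKM in TG replicates 1, 2 and 3 and 6.88, 7.35 and 8.14 FPKM in the WT replicates, and reads of the transgene and of the mouse's own gene are counted together.

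Some facts of the 6 libraries bear on what follows. The labels give male mice, yet *Xist*, an RNA of the inactive X chromosome of females, was between 20.2 and 33.6 FPKM in all 6 libraries and none of the 28 Y-chromosome loci had a value above 0. The tissue label was checked with 8 adipocyte markers, whose summed level was 29208 to 34618 FPKM in TG and 25365 to 31363 FPKM in WT iWAT. Most of that sum is *Fabp4*, at 24561 to 29363 FPKM in TG and 19297 to 23539 FPKM in WT, while *Adipoq* and *Lpl* fell, to 0.550 and 0.626 times their WT means (limma adjusted p = 0.0172 and 0.0209), and the median log2 fold change of the 8 was -0.11. Of other cell types, the 11 skeletal muscle markers with a row of their own summed to 806 FPKM in TG replicate 2 and to between 11.1 and 172 FPKM elsewhere (109 to 806 FPKM in TG, 11.1 to 172 FPKM in WT). *Myh4* was at 0 in WT replicate 1, and *Tnnt3*, *Krt14* and *Cd79a* share their rows with other genes and were left out of the sums. The 6 macrophage markers summed to 99.9 to 130.4 FPKM in TG and 167 to 206 FPKM in WT iWAT, the 9 lymphocyte markers to 226 to 343 and 326 to 463 FPKM, the 7 epithelial markers to 127 to 258 and 217 to 295 FPKM, and the 6 endothelial markers to 149 to 158 and 133 to 143 FPKM. In the test used below, 2 adipocyte, 4 macrophage and 1 lymphocyte marker were called lower and 2 endothelial markers higher. The shares of all tested loci were 7.03% lower and 11.6% higher. Of the 11 muscle and 7 epithelial markers 0 were called. At an unadjusted p under 0.05, 1 muscle marker was higher and 1 epithelial marker lower, against 19.4% and 16.8% of all tested loci. At that level 5 macrophage, 4 lymphocyte and 2 adipocyte markers were lower and 3 endothelial markers higher. All 11 muscle markers had a positive log2 fold change, with a median of 2.07, and their groups overlapped. All 7 epithelial markers had a negative one, with a median of -0.35. In bulk tissue, more cells of a type and more RNA per cell cannot be told apart, and the part that cell composition plays in the members' values was not tested.

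Of the 10 genes, 6 were higher in TG than in WT iWAT at an adjusted p under 0.05 and 0 were lower (limma on log2(FPKM + 1), 3 mice per genotype, Benjamini-Hochberg adjustment over 11692 loci). The background of this test is 11.6% of all tested loci called higher and 7.03% called lower. At an unadjusted p under 0.05, 8 of the 10 were higher and 0 lower, against 19.4% and 16.8% of all tested loci. Their median log2 fold change was 0.48, against -0.01 for all tested loci. The 6 genes that rose were both MICOS genes, all 3 fusion GTPases and *Dnm1l*, while the Opa1 proteases, *Mff* and *Fis1* did not pass the test. In 8 of the 10 genes every TG mouse was above every WT mouse, an arrangement found at 22.8% of all tested loci, and in none was every TG mouse below every WT mouse, found at 20.1%. Without TG replicate 2, whose muscle markers summed highest, 6 members were called higher, with muscle sums of 109 and 159 FPKM in the remaining TG mice and 11.1, 172 and 50.2 FPKM in the WT mice. With any other mouse left out, 5 were called. Among all loci, 1295 were called higher without TG replicate 2 and 780 to 1045 without any other mouse, against 1352 with all 6 mice.

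**Figure D1:**
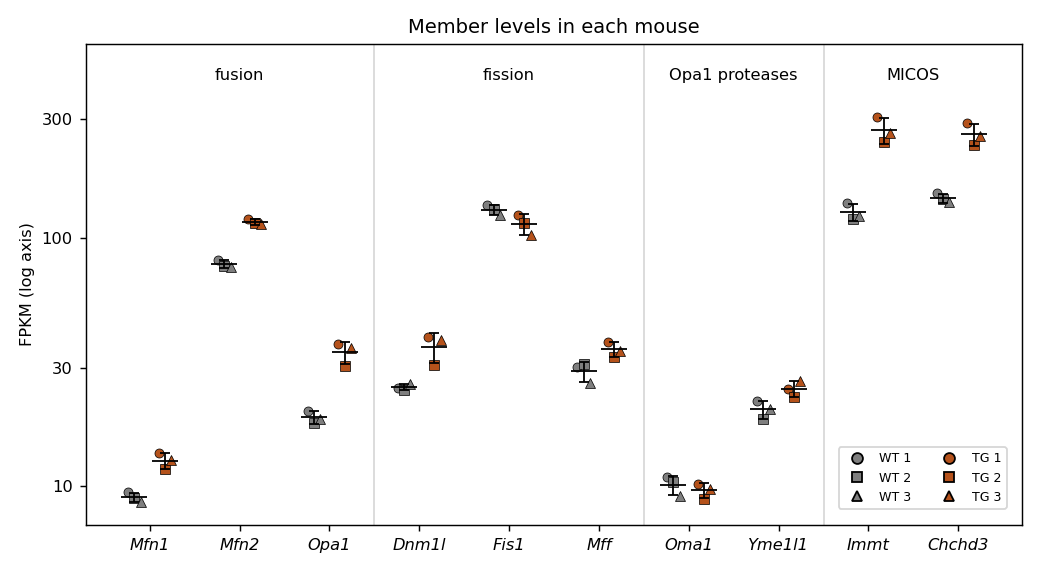
FPKM on a log axis for each of the 10 genes in each mouse, with grey for WT, orange for TG, a symbol for each replicate number, and a bar and whiskers for mean ± SD (n = 3 mice). The TG points of *Immt* and *Chchd3* lie at 235 to 305 FPKM, above all WT points at 119 to 151 FPKM, while those of *Fis1* and *Oma1* overlap with WT.

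Placed among all tested loci by log2 fold change, *Immt* was at percentile 97.3, *Chchd3* at 95.5 and *Opa1* at 95.4, while *Oma1* was at 42.4 and *Fis1* at 26.4. *Immt*, at chr6:71831204-71877330 of mm10, showed the largest difference of the 10 genes. Its FPKM was 305, 242 and 264 in TG replicates 1, 2 and 3 and 138, 119 and 122 in the WT replicates. The lowest TG value was well above the highest WT value, and the ratio of the means was 2.14. The mean of *Immt* was 270.4 ± 32.1 FPKM in TG against 126 ± 9.83 FPKM in WT iWAT (SD, n = 3 each). The log2 fold change was 1.09 with a standard error (SE) of 0.12 and a limma adjusted p of 0.00186. *Chchd3*, at chr6:32791114-33060252, had 289, 235 and 257 FPKM in the TG mice and 151, 142 and 139 FPKM in the WT mice. It rose 1.81-fold, with a log2 fold change of 0.84 (SE 0.10, limma adjusted p = 0.00292). In both MICOS genes TG replicate 1 was the highest library and TG replicate 2 the lowest of the TG group.

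The largest rises among the 10 genes were those of *Immt*, *Chchd3* and *Opa1*, and their promoters are shown beside those of *Fis1* and *Oma1*, whose groups overlapped. Each is the RefSeq window of 300 bases on GRCm38.p6, the mm10 build, from 250 bases before to 50 after an annotated start, printed 5′ to 3′ on the gene's own strand. Capitals mark matches on either strand to the core of the NRF1 motif (TGCGCA), to an ETS motif (CCGGAAG) or to the ERR half-site (AAGGTCA). NRF1, the GABP factor of the ETS family and ERR factors are known regulators of nuclear genes for mitochondrial proteins.
Immt (chr6:71831070-71831369, plus strand): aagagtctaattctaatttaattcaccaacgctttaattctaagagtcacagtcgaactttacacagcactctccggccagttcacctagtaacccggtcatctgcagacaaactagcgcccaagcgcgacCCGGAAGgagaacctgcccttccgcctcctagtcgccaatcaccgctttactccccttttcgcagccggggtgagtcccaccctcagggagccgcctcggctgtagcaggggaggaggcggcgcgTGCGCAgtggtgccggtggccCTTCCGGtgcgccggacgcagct
Chchd3 (chr6:33060211-33060510, minus strand): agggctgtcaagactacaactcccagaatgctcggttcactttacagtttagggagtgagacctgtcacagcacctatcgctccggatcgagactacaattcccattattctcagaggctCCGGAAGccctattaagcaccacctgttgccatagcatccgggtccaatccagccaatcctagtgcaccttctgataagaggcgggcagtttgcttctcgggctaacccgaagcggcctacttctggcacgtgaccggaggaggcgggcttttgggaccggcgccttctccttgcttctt
Opa1 (chr16:29579084-29579383, plus strand): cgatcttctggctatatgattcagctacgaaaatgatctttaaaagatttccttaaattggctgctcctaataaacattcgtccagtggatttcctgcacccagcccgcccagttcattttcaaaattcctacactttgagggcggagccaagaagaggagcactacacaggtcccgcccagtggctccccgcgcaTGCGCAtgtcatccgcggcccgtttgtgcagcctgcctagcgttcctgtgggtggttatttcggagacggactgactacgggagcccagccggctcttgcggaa
Fis1 (chr5:136953025-136953324, plus strand): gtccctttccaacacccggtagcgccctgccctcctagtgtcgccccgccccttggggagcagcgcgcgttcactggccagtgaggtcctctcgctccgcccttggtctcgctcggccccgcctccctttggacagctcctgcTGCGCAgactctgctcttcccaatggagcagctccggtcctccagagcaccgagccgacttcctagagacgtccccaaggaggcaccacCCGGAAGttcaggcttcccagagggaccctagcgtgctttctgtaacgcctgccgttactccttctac
Oma1 (chr4:103313596-103313895, plus strand): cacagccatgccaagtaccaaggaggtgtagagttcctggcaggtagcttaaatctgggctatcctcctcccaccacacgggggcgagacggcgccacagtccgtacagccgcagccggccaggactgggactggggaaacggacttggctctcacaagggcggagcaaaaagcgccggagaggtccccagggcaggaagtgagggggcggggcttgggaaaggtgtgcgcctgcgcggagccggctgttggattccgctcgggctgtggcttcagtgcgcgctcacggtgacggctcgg

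Promoter windows were found for all 10 genes, and the one nearest the 5′ end of the deposited locus was searched for each. The NRF1 core, which reads the same on both strands, was in 3 of the 10 windows, those of *Opa1*, *Immt* and *Fis1*, and in 7.76% of all 32851 promoter windows in the table. In *Opa1* it begins 54 bases before the start and in *Fis1* 107 bases before it. The ETS motif was in 5 of the 10 windows, those of *Mfn1*, *Fis1*, *Yme1l1*, *Immt* and *Chchd3*, and in 8.86% of all windows. The ERR half-site was in none of the 10 and in 4.72% of all windows. Matches were thus present in genes that rose and in genes that did not, and no capitals overlap between motifs. No test was made on these counts, and a match to letters is not evidence of binding.

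All 3 fusion GTPases rose. *Opa1*, at chr16:29579315-29654606, had 37.2, 30.6 and 36.1 FPKM in the TG mice and 20.2, 18.0 and 18.6 FPKM in the WT mice, so that its lowest TG value was far above its highest WT value. It rose from 18.9 ± 1.11 to 34.6 ± 3.56 FPKM (SD, n = 3 mice per genotype), and the log2 fold change was 0.84 (SE 0.10, limma adjusted p = 0.00242). The table gives 1 value for the gene, so splice forms of *Opa1* and the cut forms of its protein were not measured.

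*Mfn2*, at chr4:147870977-147904884, had 119, 114 and 113 FPKM in the TG mice and 81.5, 76.8 and 76.3 FPKM in the WT mice. Its groups were tight, with a coefficient of variation of 2.85% in TG, the lowest of the 10 genes in that group, and 3.62% in WT. The log2 fold change was 0.56 (SE 0.076, limma adjusted p = 0.00414), a 1.48-fold rise. *Mfn1*, at chr3:32529482-32579225, was far less abundant, with 13.7, 11.7 and 12.7 FPKM in the TG mice and 9.46, 8.94 and 8.68 FPKM in the WT mice. It rose 1.41-fold, with a log2 fold change of 0.45 (SE 0.083, limma adjusted p = 0.0123). The ratio of *Mfn2* to *Mfn1* within a mouse was 8.73, 9.75 and 8.90 in TG and 8.61, 8.59 and 8.79 in WT replicates 1, 2 and 3. These ratios overlap between the genotypes, and *Mfn2* was the main mitofusin mRNA in all 6 mice.

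Of the fission genes, *Dnm1l* passed the test, and *Mff* and *Fis1*, which encode outer membrane proteins, did not. *Dnm1l*, at chr16:16311518-16359097, had 39.9, 30.8 and 38.6 FPKM in the TG mice and 24.8, 24.4 and 25.9 FPKM in the WT mice. The WT values are close together, while TG replicate 2 lies below the other TG mice and nearer to WT, and the TG coefficient of variation of 13.6% is the highest of the 10 genes. Its log2 fold change was 0.51 (SE 0.11, limma adjusted p = 0.0206). With any mouse other than TG replicate 2 left out, all loci called higher fell from 1352 to between 780 and 1045. The call of *Dnm1l* was lost in each of those fits. The adjusted p was 0.056, 0.0744, 0.0572, 0.0668 and 0.057 without TG replicate 1, TG replicate 3, WT replicate 1, WT replicate 2 and WT replicate 3, and 0.00691 without TG replicate 2, with log2 fold changes between 0.44 and 0.63.

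*Mff*, at chr1:82724788-82752494, had 38.2, 33.3 and 35.1 FPKM in the TG mice and 30.1, 31.0 and 25.9 FPKM in the WT mice. The groups do not overlap, but the gap is small beside the spread, and the log2 fold change of 0.29 (95% interval 0.057 to 0.51) had a limma adjusted p of 0.0812. *Fis1*, at chr5:136953275-136966234, was the second most abundant of the 10 mRNAs in WT iWAT. It had 123, 114 and 102 FPKM in the TG mice and 135, 130.2 and 123 FPKM in the WT mice. Before rounding, TG replicate 1 lies just above WT replicate 3, so the groups overlap, and the log2 fold change was -0.19 (95% interval -0.43 to 0.038, limma adjusted p = 0.201). The interval holds no rise above 0.038, so a rise of the size seen in *Dnm1l* lies outside it. After quantile normalization, which forces the 6 libraries onto the same distribution, *Fis1* was called lower. Its log2 fold change was then -0.35, with a limma adjusted p of 0.0182. That setting called 1083 of all loci lower, against 822 in the main fit.

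The 2 proteases that cut Opa1 had smaller log2 fold changes than *Opa1* itself. *Yme1l1*, at chr2:23156505-23199260, is the ATP-dependent protease of the inner membrane that acts under basal conditions, and had 24.7, 22.9 and 26.5 FPKM in the TG mice and 22.1, 18.7 and 20.4 FPKM in the WT mice. Its lowest TG value lies just above its highest WT value. The log2 fold change of 0.26 (95% interval 0.045 to 0.48) had a limma adjusted p of 0.0882. With sample quality weights the adjusted p was 0.0423, and 1611 of all loci were called higher, against 1352 in the main fit. *Oma1*, at chr4:103313822-103366525, is the stress-activated protease, and had 10.3, 8.92 and 9.74 FPKM in the TG mice and 10.9, 10.4 and 9.17 FPKM in the WT mice. Its groups overlap throughout, with a log2 fold change of -0.067 (95% interval -0.29 to 0.15, limma adjusted p = 0.634).

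Ranked by mean FPKM, the order of the 10 mRNAs differed between the genotypes at the top. In WT iWAT *Chchd3* (144 ± 6.08 FPKM, SD, n = 3) came first, followed by *Fis1* (129 ± 6.21) and *Immt* (126 ± 9.83), and the ranges of *Fis1* and *Immt* overlapped. In TG iWAT *Immt* (270.4 ± 32.1 FPKM, SD, n = 3) and *Chchd3* (260.3 ± 26.7) came first with overlapping ranges, and *Mfn2* (116 ± 3.29) and *Fis1* (113 ± 10.7) followed, also overlapping. *Dnm1l*, *Mff* and *Opa1* formed a middle group in TG with means of 34.6 to 36.4 FPKM, whose neighbours in the order overlapped. In WT the same 3 genes were apart, at 29.0 FPKM for *Mff*, 25.1 FPKM for *Dnm1l* and 18.9 FPKM for *Opa1*, with *Yme1l1* at 20.4 FPKM overlapping *Opa1*. *Mff* and *Dnm1l* were barely apart there, since WT replicate 3 had 25.93 FPKM of *Mff*, its lowest WT value, and 25.91 FPKM of *Dnm1l*, its highest. *Mfn1* and *Oma1* were lowest in both genotypes, with *Oma1* and *Mfn1* overlapping in WT and *Mfn1* above *Oma1* in every TG mouse.

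Within a genotype the same mouse was highest for most of the 10 mRNAs. TG replicate 1 was the highest TG library for 9 of the 10 genes and TG replicate 2 the lowest for 8. WT replicate 1 was the highest WT library for 8 genes, and WT replicate 3 the lowest for 6. The mean log2(FPKM + 1) of the 12 mitochondrial reference genes named below had the same extremes. It was 6.46, 6.26 and 6.30 in TG replicates 1, 2 and 3 and 5.99, 5.85 and 5.77 in the WT replicates. The pattern is thus not particular to the 10 genes, and its share over all loci was not counted. Over the 10 genes the FPKM summed to 1000.4, 845 and 894 in TG replicates 1, 2 and 3 and to 623, 580.0 and 569 in the WT replicates, and most of each sum comes from the MICOS genes, *Mfn2* and *Fis1*.

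Ratios between partners within a mouse do not depend on the scaling of the library. Of 6 ratios formed, 4 were higher in every TG mouse than in every WT mouse, each with p = 0.1 by an exact permutation test (two-sided, 3 mice against 3), which is the smallest p this design allows, and 0.15 after Benjamini-Hochberg adjustment over the 6. Among single loci, 22.8% had every TG mouse above every WT mouse and 20.1% every TG mouse below. The share among ratios of other gene pairs was not counted, so the count of 4 has no background of its own. The ratio of *Opa1* to *Dnm1l* was 0.933, 0.994 and 0.937 in TG replicates 1, 2 and 3 and 0.812, 0.736 and 0.719 in the WT replicates. The ratio of *Mff* to *Fis1* was 0.310, 0.291 and 0.344 in TG and 0.223, 0.238 and 0.211 in WT mice. Every TG mouse thus had more *Mff* mRNA per *Fis1* mRNA than every WT mouse. For the proteases, the ratio of *Yme1l1* to *Oma1* was 2.41, 2.57 and 2.72 in TG and 2.02, 1.81 and 2.23 in WT mice. For the MICOS core, the ratio of *Immt* to *Chchd3* was 1.06, 1.03 and 1.03 in TG and 0.911, 0.836 and 0.879 in WT mice, close to equal in TG and below equal in WT. The ratio of *Mfn2* to *Dnm1l*, a fusion and a fission GTPase, was 2.99, 3.72 and 2.93 in TG and 3.28, 3.14 and 2.95 in WT mice. It overlapped between the genotypes (exact permutation p = 0.9), as did that of *Mfn2* to *Mfn1* (exact permutation p = 0.2).

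**Figure D2:**
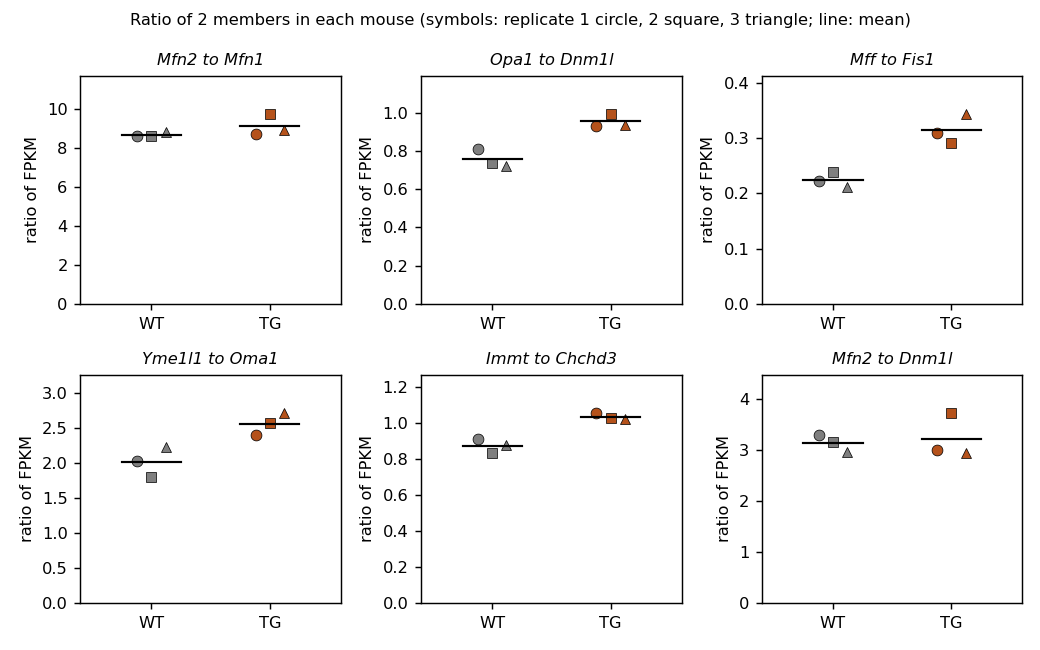
Ratio of FPKM of 2 genes in each mouse for 6 pairs, each on its own axis from 0, with grey for WT, orange for TG, a symbol for each replicate number and a line at the mean of 3 mice. TG and WT points are apart for *Opa1* to *Dnm1l*, *Mff* to *Fis1*, *Yme1l1* to *Oma1* and *Immt* to *Chchd3*, and overlap for the 2 ratios with *Mfn2*.

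To ask whether they moved with or apart from other mRNAs for mitochondrial proteins, the 10 genes were next compared with 12 reference genes that mark the outer membrane, import channels, matrix and mitochondrial genome (*Tomm20*, *Tomm22*, *Tomm40*, *Vdac1*, *Vdac2*, *Vdac3*, *Timm23*, *Timm50*, *Cs*, *Hspd1*, *Hspa9* and *Tfam*). The mean log2(FPKM + 1) of the 12 was 0.47 higher in TG than in WT. These genes did not move as a block, with log2 fold changes from 0.11 for *Tomm20* to 1.12 for *Cs*, the citrate synthase. Of the 12, 5 were called higher, against 11.6% of all tested loci. In each mouse their mean was subtracted from every locus and the test was run again. By this measure 3 of the 10 genes were higher, where 4.19% of all tested loci were, and 2 were lower, where 65.9% of all loci were, because the subtraction moves the median of all loci to -0.48.

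*Immt* exceeded the reference by a log2 difference of 0.62 (SE 0.086, limma adjusted p = 0.00216), *Chchd3* by 0.37 (SE 0.084, adjusted p = 0.00728) and *Opa1* by 0.36 (SE 0.10, adjusted p = 0.0121). The call of *Opa1* was lost without TG replicate 3, at an adjusted p of 0.0504. *Fis1* and *Oma1* were lower relative to the reference, with differences of -0.67 (SE 0.088, adjusted p = 0.00177) and -0.54 (SE 0.10, adjusted p = 0.0041). Most loci were called lower by this measure (65.9%), and the median of all tested loci was -0.48. The value of *Oma1* is near that median, so its call does not set it apart from other loci. *Fis1* lies below the median, but only at percentile 26.4 of log2 fold change, so its call does not set it apart either. The other 5 did not pass the test. *Mfn2*, *Dnm1l* and *Mfn1* had differences of 0.087, 0.042 and -0.022, and *Mff* and *Yme1l1* of -0.19 and -0.21. The sign for *Mfn1* and for *Dnm1l* flipped in some of the other settings. So *Immt*, *Chchd3* and *Opa1* were above the mean of these 12 genes, and *Fis1* and *Oma1* were below it. The 12 genes were themselves spread about their mean, from -0.36 for *Tomm20* to 0.65 for *Cs*. By the same test 4 of them were called above it and 2 below it. A place above or below the mean is thus not particular to the members.

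**Figure D3:**
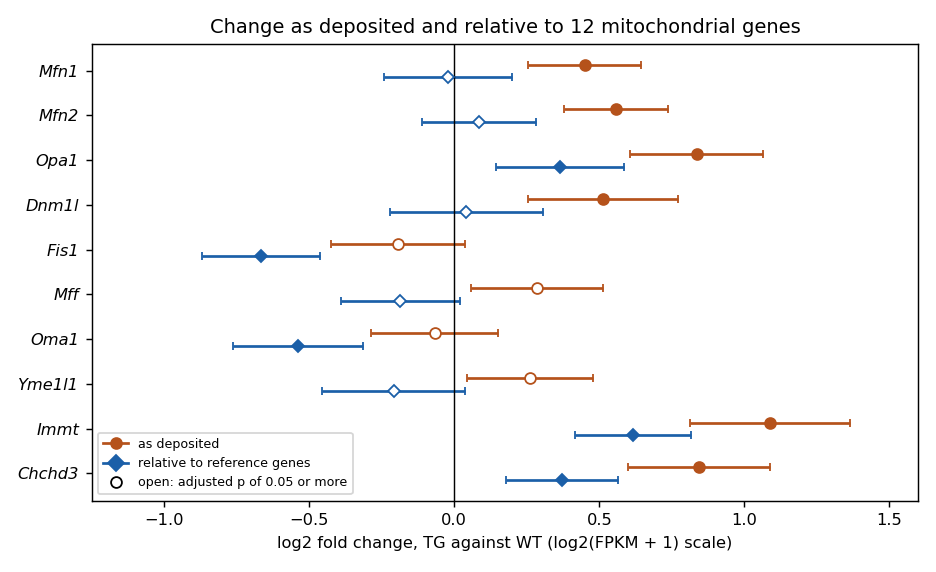
Log2 fold change of TG against WT on the log2(FPKM + 1) scale for each of the 10 genes, as deposited (orange circles) and relative to the mean of 12 mitochondrial reference genes (blue diamonds), with 95% intervals from limma and open symbols for an adjusted p of 0.05 or more. *Immt*, *Chchd3* and *Opa1* lie to the right of 0 by both measures, and *Fis1* and *Oma1* lie left of 0 with filled symbols only relative to the reference.

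The 10 genes were then set beside other genes of the same processes, in 4 lists with 36 genes in all. Of these, 31 passed the filter with a row of their own, and their median log2 fold change was 0.43. By limma 18 of the 31 were called higher and 0 lower, against 11.6% and 7.03% of all tested loci. At an unadjusted p under 0.05, 21 were higher and 0 lower, against 19.4% and 16.8% of all tested loci. The same shares are the background for the counts of each list below. *Micos13* was not matched, *Apoo* shares its row with *Apoo-ps*, and *Pld6*, *Gdap1* and *Mtfr2* did not pass the filter, with means of at most 0.456 FPKM.

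The list of cristae and MICOS partners had the highest median, 0.73, with 8 of 11 tested genes called higher. *Ghitm*, an inner membrane protein needed for normal cristae, rose from 131 ± 9.67 to 291 ± 19.2 FPKM (SD, n = 3 mice per genotype), and its log2 fold change was 1.15 (SE 0.10, limma adjusted p = 0.000904). *Letm1*, an inner membrane ion exchange protein, *Mtx2*, a partner of the outer membrane sorting machinery that binds MICOS, and *Apool*, the MICOS subunit Mic27, had log2 fold changes of 1.03, 0.90 and 0.86 (adjusted p = 0.0011, 0.00187 and 0.00394). *Chchd6*, the MICOS subunit Mic25 and a relative of *Chchd3*, had 55.4, 46.7 and 44.9 FPKM in the TG mice and 50.8, 48.4 and 40.1 FPKM in the WT mice, so its groups overlap, and the change was 0.077 on the log2 scale (adjusted p = 0.682). The joint row of *Apoo*, the MICOS subunit Mic26, and its pseudogene, singled out after its values were seen, had 13.6, 7.86 and 10.3 FPKM in TG and 3.26, 2.49 and 3.42 FPKM in WT mice, and reads of the gene and its pseudogene cannot be told apart there. The count of 8 was 5 without TG replicate 1, without TG replicate 3 or without WT replicate 3. Among all loci, those called higher fell from 1352 to 912, 812 and 780 in these fits.

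Among fission accessory genes, 4 of 8 were called higher. *Mtfp1*, an inner membrane protein that promotes fission, had 27.1, 20.3 and 21.7 FPKM in the TG mice and 9.61, 10.7 and 5.51 FPKM in the WT mice, the largest log2 fold change of all genes with a row of their own in these lists, at 1.36 (SE 0.23, limma adjusted p = 0.00885). *Mief2* and *Mief1*, the Drp1 receptors MiD49 and MiD51, had log2 fold changes of 0.84 and 0.38 (adjusted p = 0.00844 and 0.015), and *Mtfr1* of 0.39 (adjusted p = 0.03). So the 2 MiD genes passed the test, while the receptor gene *Mff* and *Fis1* did not. The difference between these genes was not tested. The count of 4 was 2 without TG replicate 3, WT replicate 2 or WT replicate 3. Among all loci, those called higher fell from 1352 to 812, 851 and 780 in these fits. Each of these fits lost the calls of *Mief1* and *Mtfr1*, with adjusted p from 0.0544 to 0.0949. The call of *Mtfr1* was also lost without TG replicate 1, at an adjusted p of 0.0772. *Dnm2*, a dynamin of endocytosis that has also been linked to mitochondrial division, was -0.10 different on the log2 scale (adjusted p = 0.311).

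Of 5 fusion accessory genes tested, 3 were called higher. *Mtch2*, an outer membrane protein, *Miga2*, which promotes outer membrane fusion, and *Slc25a46*, an outer membrane relative of the carrier family, had log2 fold changes of 0.70, 0.68 and 0.48 (limma adjusted p = 0.00956, 0.00869 and 0.0143). *Slc25a46* lost its call without TG replicate 3 or WT replicate 3 (adjusted p = 0.0575 and 0.0535). Of 7 genes for Opa1 processing and the inner membrane scaffold, 3 were called higher. *Afg3l2* and *Spg7*, subunits of the matrix-facing m-AAA protease, had log2 fold changes of 1.00 and 0.96 (adjusted p = 0.00204 and 0.00175). Their means were 2.03 and 1.99 times those in WT. *Afg3l1*, the other m-AAA subunit gene of the mouse, had 17.7, 15.8 and 15.9 FPKM in the TG mice and 14.1, 13.2 and 13.7 FPKM in the WT mice, and its log2 fold change of 0.25 (adjusted p = 0.0637) did not pass the test, with a size close to the 0.26 of *Yme1l1*. The prohibitin gene *Phb* rose (log2 fold change 0.60, adjusted p = 0.00844), while its partner *Phb2* had 0.16 (adjusted p = 0.323).

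**Figure D4:**
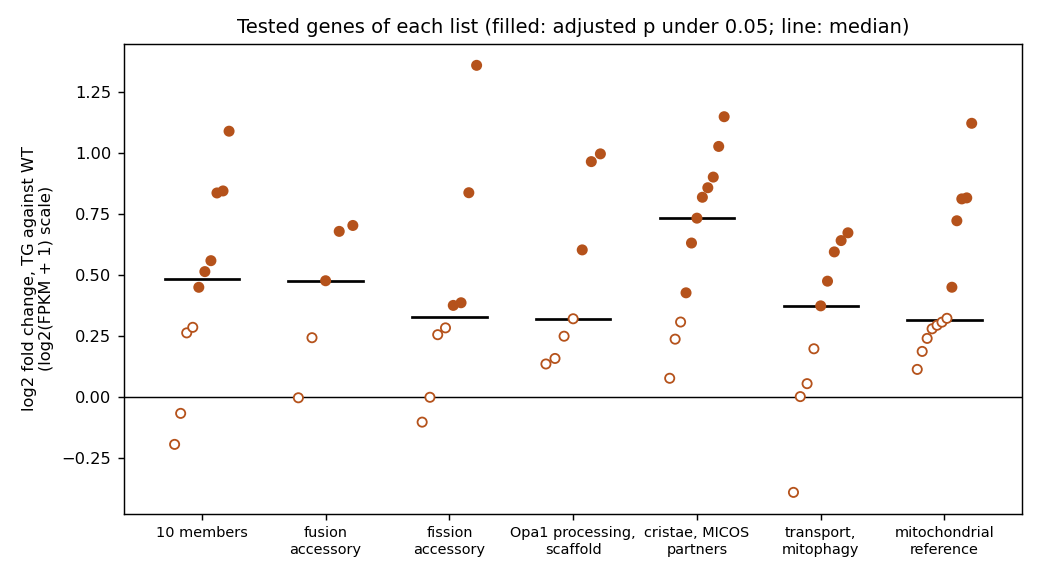
Log2 fold change of TG against WT on the log2(FPKM + 1) scale for each tested gene of 7 lists, filled where the limma adjusted p was under 0.05, with a line at each list's median. The median is 0.48 for the 10 genes, 0.73 for cristae and MICOS partners and between 0.31 and 0.48 for the other lists.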

How the data were processed

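Total RNA of iWAT (TRIzol, TruSeq RNA v2 libraries, 1 per mouse) was sequenced by the authors as single-end reads of 100 bases and mapped to mm10. The submitters' processing notes name CASAVA 1.8.2, TopHat2 2.0.9, Bowtie2 2.1.0 and Cufflinks 2.2.1. The annotation and options are not given in the sources used here. The deposited values are FPKM per gene locus and mouse. A kit that does not mark strand cannot part a gene from antisense transcripts, which GENCODE lists for *Mfn2*, *Dnm1l*, *Mff*, *Immt* and *Chchd3*. The FPKM of a sample summed to 466059 to 542096. Reads were not used, so depth is unknown. Steps between values under 0.3 FPKM put relative depth between 0.679 and 1.44, with WT replicate 3 as 1.

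Loci whose mean FPKM exceeded 1 in TG or in WT were tested on log2(FPKM + 1) with limma 3.58.1 in R 4.3.3 (two-sided, with a mean-variance trend and without covariates, p-values adjusted after Benjamini and Hochberg, threshold 0.05), since the file holds no counts for the count-based comparison the authors ran. This scale understates the change of low genes. The procedure was tested on simulated data with independent normal noise. The changes added there were larger than most of those reported here, so that test does not bear on smaller changes. Ratios were tested with SciPy 1.17.1 (exact permutation, 20 arrangements). A symbol on several rows was taken from the row with the highest mean. Locus starts, counted from 0 in the table, are printed counted from 1.

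Named are all 10 members and, of each other list, genes past the threshold, at most 4 by size and direction. A gene of the transport and mitophagy list is not reported here. *Fabp4*, *Adipoq*, *Lpl*, *Afg3l1*, *Chchd6*, *Dnm2*, *Phb2*, *Bnip3* and *Mtx3* were named after their values were seen. Members, lists, ratios and tests were chosen with earlier results of these data known. Protein sequences were not used here. Alternatives were another pseudocount (0.1), quantile normalization or median-ratio scaling, no filter or 1 on the mean over the 6 samples, no trend, sample weights, a replicate block, leaving out each mouse, summed rows, a threshold of 0.01 and the median of the reference list.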

Additional observations from a re-analysis of the deposited data

How the results depend on the processing

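Among the 10 genes, *Mfn2*, *Opa1*, *Immt* and *Chchd3* kept their call in all 16 other settings, *Mfn1* in 15 (lost at an adjusted p under 0.01) and *Dnm1l* in 10. The count called higher was between 4 and 7. The count of 7 came with sample quality weights, where 1611 loci were higher and 1185 lower, against 1352 and 822 in the main fit. With quantile normalization 1 member, *Fis1*, was called lower, and 1300 of all loci were higher and 1083 lower. At an adjusted p under 0.01, 569 loci were higher and 199 lower. Leaving out 1 mouse at a time, 780 to 1295 loci were higher and 329 to 906 lower. In the comparison with the reference genes, the difference for *Mfn1* was 0.0077 with a pseudocount of 0.1, 0.0032 with sample quality weights and 0.16 against the median of the reference list, and -0.051 to 0.0048 with a mouse left out. For *Dnm1l* it was -0.024 to 0.12 with a mouse left out, and the log2 difference of the *Mfn2* to *Dnm1l* ratio was -0.076 to 0.10. The cause of these shifts was not tested. The other 5 ratios kept their direction in all 8 settings each, and within replicate numbers their exact permutation p was 0.25, the smallest that 3 pairs allow. With the replicate block, 6 members were called higher, as were 1230 of all loci, while 656 loci were lower, and *Trak2* (adjusted p = 0.084) and *Mtx3* of the cristae list (adjusted p = 0.0556) lost their calls. The numbers mark different animals, and deviations from the group means correlated at 0.013, 0.034 and 0.07 between mice of the same number, so the samples share only a number and no mouse correlated best with its own number. Absolute depth is unknown, which limits *Mfn1* and *Oma1*, the lowest of the 10, and the genes under 1 FPKM most.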

Other observations

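Mitochondria are also moved along microtubules and removed by mitophagy, and 9 of 10 listed genes of these processes were tested in the same fit (*Rhot2* shares a row with other genes). Of these, 5 were called higher and 0 lower (limma; 5 higher and 0 lower at an unadjusted p under 0.05). Of all tested loci, 11.6% were called higher and 7.03% lower, and 19.4% and 16.8% at an unadjusted p under 0.05. *Pink1*, the kinase that marks depolarised mitochondria, had 185, 156 and 164 FPKM in the TG mice and 107, 105 and 104 FPKM in the WT mice, with a log2 fold change of 0.67 (SE 0.092, limma adjusted p = 0.00416). The mitophagy receptor gene *Bcl2l13* had 0.59 (adjusted p = 0.00421). *Trak2*, an adaptor for mitochondrial transport, had 0.47 (adjusted p = 0.0387), and its call was lost when any library other than TG replicate 2 was left out, with adjusted p from 0.054 to 0.116. The count of 5 was 3 without TG replicate 3 or WT replicate 2, where all loci called higher fell from 1352 to 812 and 851. *Bnip3*, the hypoxia-inducible mitophagy receptor, had 114, 112 and 127 FPKM in TG and 224, 113 and 144 FPKM in WT mice, with WT replicate 1 far above the rest, and its log2 fold change was -0.39 (adjusted p = 0.268).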
